A study of Cicer arietinum with 5 samples.

Results

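Stretches of the chickpea genome that carried methylation at CG cytosines and almost nowhere else were examined in developing seeds. The genome was divided into separate windows of 500 bp, and a window was kept when at least 6 CG cytosines were called methylated in all 5 libraries, no CHG cytosine was called in any library and at most 3 asymmetric cytosines were called in any one library. These windows, called CG-only windows here, numbered 42860 of the 694489 windows of the chromosomes Ca1 to Ca8 (6.17%), and 21.1% of the 202909 windows that held at least 6 such CG cytosines. The windows were chosen by these calls in all 5 libraries, so the presence of CG and the lack of CHG and asymmetric cytosines in them are a description and not a result.

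In plants, CG methylation is copied to both daughter strands after each replication by the maintenance methyltransferase MET1, which reads the methylated cytosine of the parental strand. CHG methylation is kept up mainly by CMT3, which is recruited by methylated histone H3, and CHH methylation, which has no partner on the other strand, by DRM2 guided by small RNAs and by CMT2. Methylation in CG alone is best known from the bodies of transcribed genes, whereas transposons and other repeats usually carry all 3 contexts. No gene annotation of the assembly behind these positions was used here, so gene placement was not analysed.

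Whole genome bisulphite sequencing had been carried out on seeds of Himchana 1, a chickpea (Cicer arietinum) cultivar grown in the field, at late-embryogenesis (S3, 2 libraries) and mid-maturation (S5, 3 libraries). Both stages share the cultivar and the tissue, which the labels give as seed without naming a part of it, so each level averages over the cells of pooled seeds. Each library listed its called methylcytosines with their read coverage and methylation level, and the 5 libraries listed between 24561678 and 27776639 positions at a median coverage of 12 to 14 reads. A listed CG cytosine has a listed partner 1 base away on the opposite strand in some library, a CHG cytosine has one 2 bases away and none at 1, and a cytosine with no such partner is called asymmetric, a class that holds the CHH cytosines and any CG or CHG cytosine whose partner was never called.

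The CG-only windows were densely methylated at CG. They held 472328 CG cytosines listed in all 5 libraries, 16.4% of all such CG cytosines of Ca1 to Ca8, with a median of 10 per window, quartiles of 7 and 13 and a maximum of 57. Counting every CG cytosine listed in any library gave 610151 positions and a median of 14 per window, of which 77.4% were listed in all 5 libraries. The lack of asymmetric calls was fuller than the rule required, as 26242 windows (61.2%) had none in any library, whereas the highest number in a library was 1 in 12632 windows, 2 in 3000 windows and 3 in 986 windows. At the edges of the rule, the mean CG level ran from 91.8 to 92.7% over the libraries in the 6657 windows with exactly 6 CG and from 91.4 to 92.4% in the 5988 windows with 5. It ran from 91.5 to 92.5% in the 986 windows that reached 3 asymmetric cytosines and from 91.5 to 92.4% in the 474 windows that had 4. The 5532 windows left out only because they held 1 or 2 CHG cytosines had levels of 93.3 to 94.1%.

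The CG level of these windows was slightly higher at S5 than at S3 in every library. The level of a window was taken as the methylated reads over all reads at the CG cytosines listed in all 5 libraries, and it averaged 93.32% and 93.13% over the windows in S3 replicates 1 and 2. The corresponding averages were 93.93%, 93.87% and 93.85% in S5 replicates 1, 2 and 3. The stages did not overlap, and S5 (93.9% ± 0.0409, SD, n = 3) exceeded S3 (93.2% ± 0.134, SD, n = 2) by 0.660 percentage points (two-sided exact permutation test, p = 0.1, the smallest value that 2 libraries against 3 can give). Because a cytosine must be called methylated in every library to enter, these levels exclude the unmethylated CG cytosines of the windows and are higher than the level over all CG cytosines would be. The median window level was 95.1% and 95% at S3 and 95.6%, 95.6% and 95.7% at S5.

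**Figure D1:**
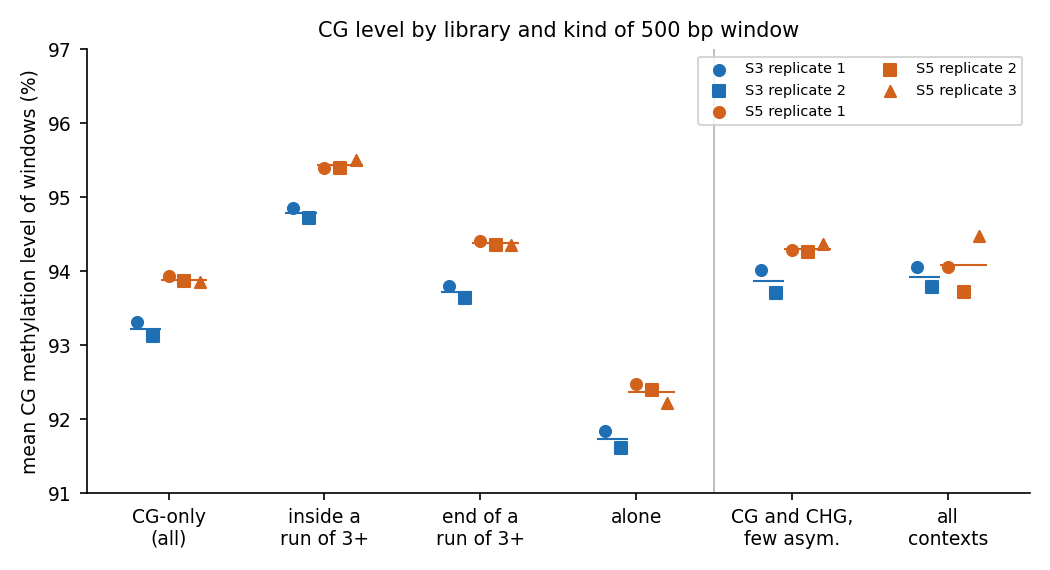
Mean CG methylation level (%) of 500 bp windows in each library (points) with stage means (short lines), for all CG-only windows and for those inside a run of 3 or more adjacent CG-only windows, at its end, or alone, beside windows with CG and CHG and few asymmetric cytosines and windows with all contexts; the axis starts at 91%. In all 4 groups of CG-only windows both S3 libraries lie below all 3 S5 libraries, while the stages overlap in windows with all contexts.

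In windows methylated in all 3 contexts the stage difference was smaller and within the spread between libraries. In the 97755 windows with at least 6 CG in all libraries, at least 3 CHG and at least 6 asymmetric cytosines in every library, S3 libraries averaged 93.9% ± 0.197 (SD, n = 2) and S5 libraries 94.1% ± 0.379 (SD, n = 3) at CG, a difference of 0.158 percentage points with overlapping stages (exact permutation test, p = 0.8). The stage difference of the CG-only windows exceeded theirs by 0.502 percentage points (two-sided exact permutation test of the within-library differences, p = 0.2), and by 0.327 without S5 replicate 2 and 0.715 without S5 replicate 3. Only 545 windows met the CG-only limits on CG and asymmetric cytosines while holding at least 3 CHG in every library. In these the CG level averaged 93.9% at S3 and 94.3% at S5, a difference of 0.442 percentage points without overlap (exact permutation test, p = 0.1), and the CG-only windows exceeded that difference by 0.218 percentage points (exact permutation test, p = 0.2).

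The CG-only windows had a wider spread of levels than the windows with all contexts, with a higher median and a longer lower tail. Within libraries, their median was higher in 5 of 5 libraries, by 0.680 percentage points on average (two-sided exact sign-flip permutation test, p = 0.0625, the smallest value that 5 libraries allow). Their mean was lower in 4 of 5 libraries, with an average difference of -0.398 percentage points, and S5 replicate 2 went the other way (p = 0.1875, same exact test), so mean and median differ in sign. Single CG cytosines below 50% made up 0.799 to 1.13% of the CG cytosines of CG-only windows and 0.228 to 0.321% of those in windows with all contexts, higher in 5 of 5 libraries (exact sign-flip test, p = 0.0625). Their share within CG-only windows was higher at S3 (0.929% and 1.13%) than at S5 (0.799%, 0.827% and 0.893%), without overlap (exact permutation test, p = 0.1). CG cytosines at exactly 100% made up 47.1% and 45.6% at S3 and 47.7%, 53.2% and 53.5% at S5, a share that also depends on coverage (exact permutation test, p = 0.2).

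**Figure D2:**
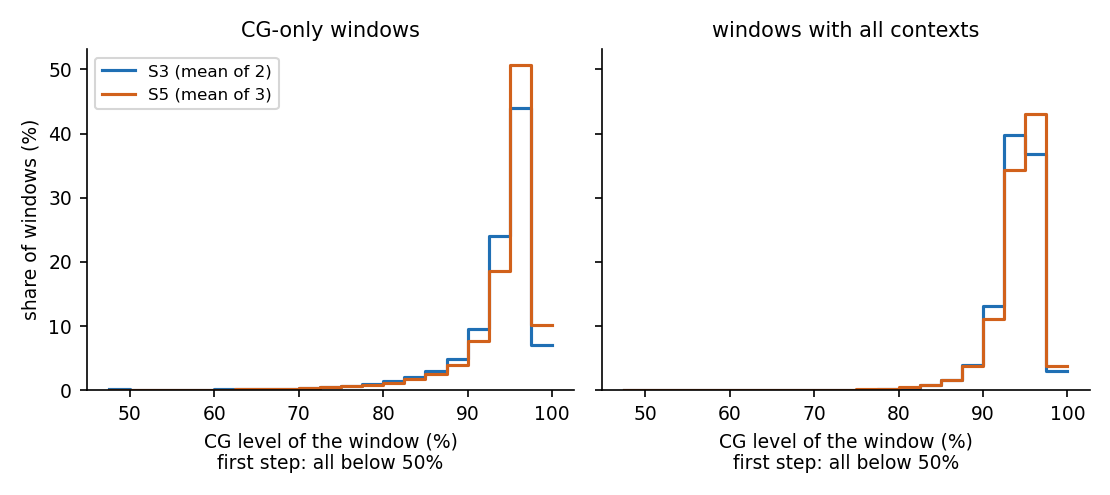
Share of windows (%) by CG level in steps of 2.5 percentage points, with all windows below 50% in the first step, for CG-only windows (left) and windows with all contexts (right); lines give S3 (window level averaged over 2 libraries) and S5 (over 3). Both stages peak above 90%, and the CG-only windows reach further down between 60 and 85% than the windows with all contexts.

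Most CG-only windows were near full methylation, and a small share was intermediate. By the level over the reads of all libraries together, 24802 windows (57.9%) were at or above 95%, 12227 (28.5%) between 90 and 95%, 4377 (10.2%) between 80 and 90%, 1294 (3.02%) between 60 and 80% and 160 (0.373%) below 60%. The S5 libraries averaged 0.522 percentage points above S3 in the first of these classes and 0.808 in the second, both without overlap of the stages (exact permutation test, p = 0.1 for each). The differences were 0.987 percentage points between 80 and 90% and 2.06 below 60%, also without overlap (exact permutation test, p = 0.2 for each). In the windows between 60 and 80% the difference of 0.627 percentage points was within the spread, and the stages overlapped (exact permutation test, p = 0.4). The less methylated classes held fewer CG cytosines, with a median of 7 per window below 60% and 10 at or above 95%, and more often held an asymmetric cytosine, in 60% of windows against 36.8%. Window levels correlated between libraries with a Pearson coefficient of 0.813 to 0.858 within a stage and of 0.752 to 0.792 between stages over the 42860 windows, which share the same positions and the same lower tail. Spearman coefficients, based on ranks, were lower, at 0.545 to 0.555 within a stage and 0.508 to 0.528 between stages.

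Within the CG-only windows, read coverage did not follow the same order over the libraries as the levels. CG cytosines of the CG-only windows had a mean coverage of 16.6 and 17.1 reads at S3 and of 18.2, 14.5 and 16.0 reads at S5, and the stages overlapped. Compared with windows with all contexts the mean differed by -1.69 reads (exact sign-flip test, p = 0.1875), with S5 replicate 2 the exception at 1.20 reads higher. The same library was the exception for the mean CG level. From S3 replicate 1 to S5 replicate 3, coverage differed by -2.85, -2.65, -1.01, 1.20 and -3.14 reads. The level differed by -0.743, -0.655, -0.121, 0.153 and -0.623 percentage points in the same order. A part of coverage in the level contrast between these classes was not tested.

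CG-only windows lay mostly side by side. Of the 42860, 68.7% had at least 1 adjacent CG-only window, and they formed 23695 runs, of which 13421 were single windows, 5546 were pairs and 4728 were runs of 3 or more that together held 42.8% of the windows. Runs of 6 or more numbered 481 and runs of 10 or more numbered 28. The longest run spanned 15 windows (7.5 kb) on Ca5 from 43752001 to 43759500 and held 186 CG cytosines and no CHG, with 5 asymmetric positions listed in any library. At CG it stood at 95.5% and 95.2% in S3 replicates 1 and 2 and at 96.7%, 96.7% and 96.9% in the S5 replicates, and its windows ranged from 89.0 to 97.2% over all reads.

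The other long runs were similarly uniform. A run of 14 windows on Ca7 from 8204501 to 8211500 held 155 CG cytosines, with S3 at 95.2% ± 0.241 (SD, n = 2) and S5 at 95.7% ± 0.807 (SD, n = 3). One of equal length on Ca8 from 5804501 to 5811500 held 189 CG cytosines and 1 asymmetric position, at 96.1% ± 0.602 and 97.0% ± 0.256. The next, of 13 windows on Ca6 from 5391501 to 5398000, held 113 CG cytosines at 95.8% ± 0.0421 and 96.5% ± 0.498. The first in genome order of 3 runs of 12 windows, on Ca4 from 37898001 to 37904000, held 164 CG cytosines at 96.6% ± 0.0759 and 96.7% ± 0.564. No window of these 5 runs was called different between the stages. A call needed a difference of at least 25 percentage points, and at these levels a rise could hardly reach it. The smallest q of a window (likelihood-ratio test described below) was 0.000978 in the Ca5 run and 0.00318 in the Ca7 run. In the runs on Ca8, Ca6 and Ca4 it was 0.268, 0.0707 and 0.722. On both sides each run was bordered by a window that also lacked CHG but held fewer than 6 CG cytosines listed in all libraries.

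The level depended on the place in the run. Windows inside a run of 3 or more averaged 94.8% at S3 and 95.4% at S5, windows at its end 93.7% and 94.4%, and windows with no adjacent CG-only window 91.7% and 92.4%. End windows differed from inside windows by -1.06 percentage points and lone windows by -3.06, each lower in 5 of 5 libraries (two-sided exact sign-flip test, p = 0.0625 for each). Each of the 3 groups was higher at S5 without overlap, by 0.642, 0.658 and 0.643 percentage points in the same order (exact permutation test, p = 0.1 for each). Windows below 80% over all reads made up 0.697% of the inside windows, 2.33% of the end windows and 6.37% of the lone windows. Lone windows also held somewhat fewer CG cytosines, with a mean of 10.4 against 11.8 inside a run, and more often an asymmetric cytosine, in 42.9% of windows against 34.3%. The mean level over all reads was 92.1% for single windows, 93.8% for pairs, 94.3% for runs of 3 and 94.98% for runs of 6, each run length sharing the same 5 libraries.

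Outside the runs, listed CG cytosines were fewer than inside, and cytosines of the other contexts were more numerous 2 kb away than next to the run. The windows bordering a run most often lacked CHG too and held fewer than 6 CG cytosines in all libraries, in 55.1% of cases against 8.02% of all windows. Windows with CHG were 22.3% of the bordering windows and 48.8% of all windows, and windows with no listed cytosine 14.0% and 25.2%. Averaged over the 9456 ends of runs of 3 or more, the number of CG cytosines listed in all libraries was 2.58 per 100 bp at 400 to 499 bp inside the run, 1.80 in the outermost 100 bp of the run and 0.959 in the first 100 bp outside. At the far end of the range, 2 kb outside the run, it was 0.806, while asymmetric positions went from 0.217 per 100 bp next to the run to 1.84 at that distance and CHG positions from 0.0996 to 0.324. The course was not even, as CG was lowest at 0.690 in the fifth 100 bp outside and reached 0.982 in the seventh, and CHG was 0.153 and 0.134 in these bins. The change between these bins falls at the far edge of the bordering window, which by definition failed the rule, most often with too few CG cytosines. The mean level of the listed CG cytosines was lowest just outside the run at S3, at 93.2% in the first 100 bp, and 94.7% at 600 to 699 bp inside it. The corresponding S5 means were 93.8% and 95.4%. The window rule itself sets the step in number at the run end and lowers the CG number in the bordering 500 bp window.

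**Figure D3:**
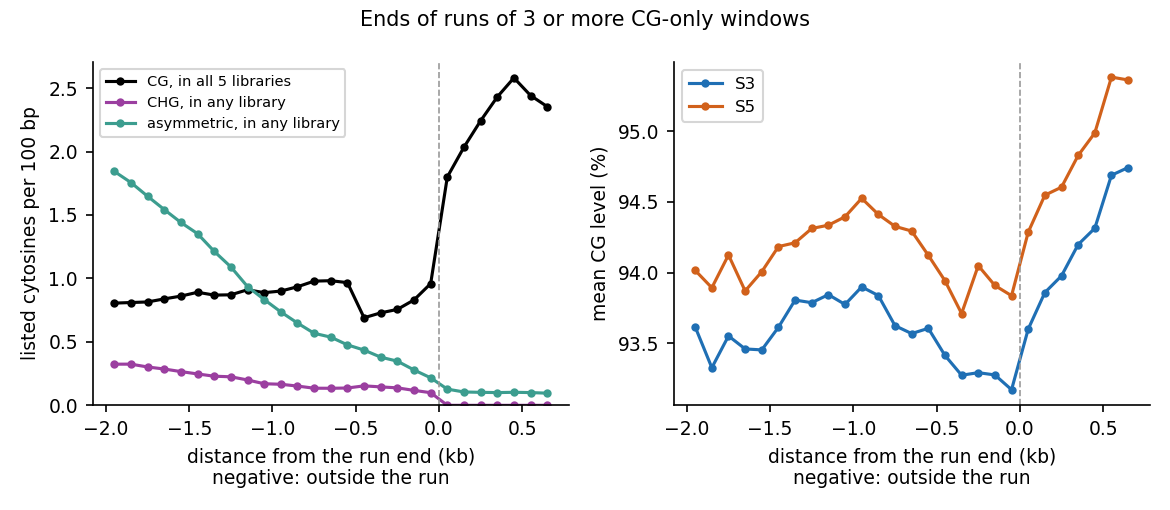
Listed cytosines per 100 bp (left) and mean CG level in % (right) by distance in kb from the 9456 ends of runs of 3 or more CG-only windows, with negative distances outside the run; lines join 100 bp bins. CG numbers fall at the run end, where the window rule applies, asymmetric numbers climb from 0.217 to 1.84 per 100 bp outwards, and S5 lies above S3 in every bin.

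The nearest CHG cytosine listed in any library was often more than a kilobase away. The median distance from a CG-only window was 1675 bp (quartiles 825 and 2861 bp), with 30.8% of windows within 1000 bp and 6.55% beyond 5000 bp. Lone windows were closer to CHG, at a median of 1132 bp, than windows inside a run, at 2296 bp, where the neighbouring CG-only windows themselves keep CHG at a distance. Windows within 1000 bp of a CHG cytosine averaged 93.0% at S3 and 93.7% at S5, those between 1000 and 2000 bp 92.8% and 93.4%, and those beyond 5000 bp 94.0% and 94.6%, so the level did not change in one direction with distance. In each of the 4 distance classes the stages did not overlap, with S5 higher by 0.573 to 0.714 percentage points (exact permutation test, p = 0.1 for each).

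Along the chromosomes, CG-only windows were most frequent on Ca8, where they made up 8.95% of windows (179 per Mb), and least frequent on Ca2, at 5.15% (103 per Mb). Their share of the windows with at least 6 CG was 35.9% on Ca8 and 17.0% on Ca2. The level at S5 exceeded that at S3 without overlap on each of the 8 chromosomes, by 0.587 percentage points on Ca7 to 0.728 on Ca1. Within chromosomes the windows were unevenly spread. Parts 1, 2, 9 and 10 of 10 equal parts of each chromosome held 48.4% of the CG-only windows and 33.4% of the windows with all contexts, where an even spread gives 10% to each part. Some chromosomes were one-sided. On Ca5, parts 1 and 2 held 3.29% and 3.84% and parts 9 and 10 held 16.7% and 18.2%. On Ca7, parts 1 and 2 held 20.1% and 18.7% and parts 9 and 10 held 5.16% and 2.89%. Of 343 full 1 Mb bins, 178 (51.9%) held 100 or more CG-only windows and together 77.0% of those windows, 11 bins held fewer than 20 and 1 held none. The fullest was on Ca7 from 3000001 to 4000000, with 321 CG-only windows of 477 windows with at least 6 CG and 49 windows with all contexts. Over the 343 bins the numbers of CG-only windows and of windows with all contexts had a Spearman coefficient of -0.920, a description in which both classes draw on the same pool of windows.

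**Figure D4:**
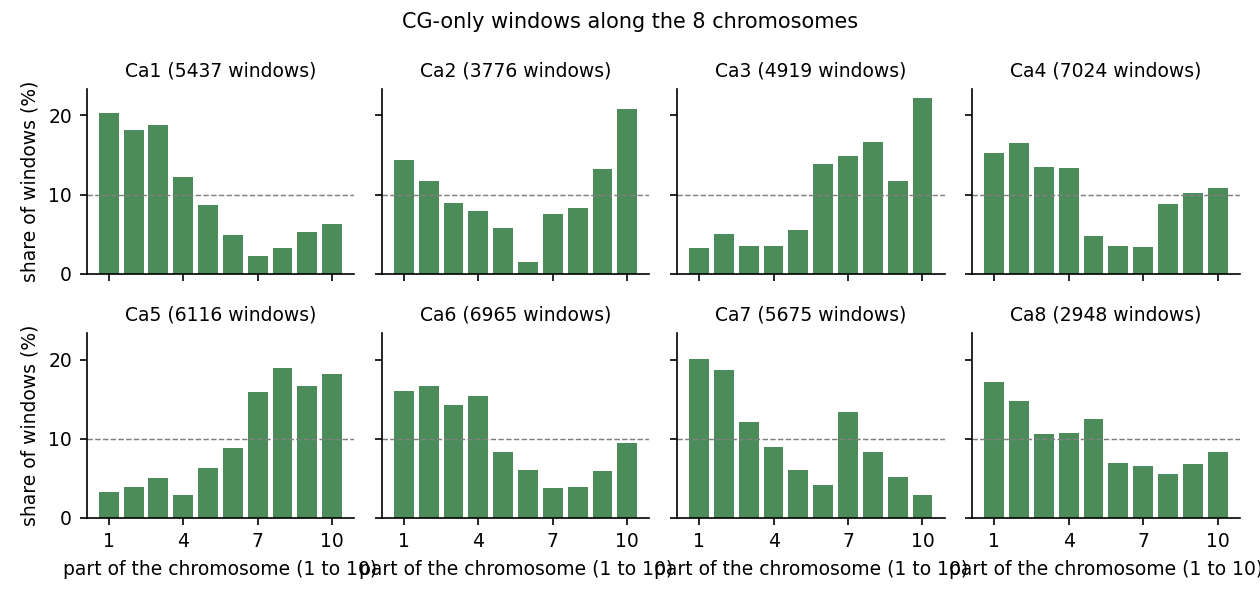
Share (%) of each chromosome's CG-only windows in each of 10 equal parts of its length, counted from base 1; the dashed line marks the 10% of an even spread. Ca1, Ca7 and Ca8 have their largest shares in part 1, Ca2 and Ca3 in part 10, and Ca5 in parts 7 to 10.

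The strands of CG dyads were compared only where both cytosines were called methylated in every library, so dyads with an unmethylated strand were left out beforehand. Among 178007 such dyads, the forward strand exceeded the reverse strand by 0.00192 percentage points on average (exact sign-flip test over the 5 libraries, p = 0.875), a mean that does not measure agreement within a dyad. None of these dyads had strands 50 or more percentage points apart over all reads, against 289 of 434735 dyads chosen in the same way in windows with all contexts (0.0665%). Both cytosines were below 50% in 395 dyads (0.222%, against 0.0504% in windows with all contexts) and at or above 90% in 85.1% (against 81.9%).

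The level also varied with the number and spacing of CG cytosines. Windows with 6 or 7 CG averaged 92.2% at S3 and 92.9% at S5, those with 8 to 11 averaged 93.2% and 93.8%, those with 12 to 19 averaged 94.0% and 94.6%, and those with 20 or more averaged 94.5% and 95.1%. S3 and S5 libraries were apart in each of these 4 classes (exact permutation test, p = 0.1 for each), and windows below 80% made up 6.21% of the first class and 0.564% of the last. The median distance from a dyad to the nearest other listed CG dyad was 16 bp. Dyads more than 120 bp from another differed from dyads within 10 bp by -0.765 percentage points, lower in 5 of 5 libraries (exact sign-flip test, p = 0.0625). The level was highest at the spacings between, at 94.1% (S3) and 94.9% (S5) for both 11 to 30 bp and 31 to 60 bp.

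Among the 5 windows with most CG cytosines, 1 passed the test between stages. The window with 57 CG cytosines, on Ca6 from 59194001 to 59194500, stood at 88.6% and 88.1% in the S3 libraries and at 93.9%, 94.3% and 96.3% in the S5 libraries, on 454 to 863 reads per library summed over its CG cytosines. Its pooled difference of 6.42 percentage points was below the size set for a call. It had q = 2.2e-09 (likelihood-ratio test of a logistic regression on reads, Benjamini-Hochberg adjustment over all windows tested). In this test a read that covers several CG cytosines of a window is counted at each of them. The counts are taken as independent, so q values of single windows can be too small. A quasi-binomial test, which allows for a spread between libraries mostly shared over all windows, gave q = 7.85e-06. The next 4 did not pass the test (q from 0.187 to 0.948). The window with 50 CG on Ca6 from 32640001 averaged 96.4% and 96.5% at S3 and S5, the one with 48 on Ca2 from 2755501 averaged 97.1% and 96.9%, the one with 47 on Ca3 from 14670001 averaged 98.3% and 96.9%, and the one with 45 on Ca6 from 4396501 averaged 97.1% and 97.6%.

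Few windows changed by a large amount. Calls needed q of 0.01 or less and a pooled difference of at least 25 percentage points, and 21 of the 42860 CG-only windows passed (0.0490%), beside 0.0855% of the 489961 windows with at least 3 CG tested across the genome. Among the 97755 windows with all contexts 19 passed (0.0194%), so the CG-only share was above that class and below all windows tested. Of the 21, 10 were higher and 11 lower at S5, beside 0.0276% and 0.058% of all windows. In all 21 the stages did not overlap, beside 408 of the 419 windows called across the genome, so this was general to calls of this size. A quasi-binomial test also called 21, beside 0.0622% of all windows, and 10 of them were higher at S5, beside 0.0194%. It scales mainly by a spread shared over all windows, 1.34 times the binomial with a weight of 216 degrees of freedom. A window's own spread between libraries hardly enters, so the test cannot decide whether a call outlasts it. The observed spread was over 3 times the binomial in 6 of the 21, a share that was not counted over all windows. The count rested in part on single libraries, as 37 windows passed when S3 replicate 1 was left out, 39 when S5 replicate 3 was, and 17 to 30 when any other library was. The shares over all windows moved too, to 0.0998%, 0.124% and 0.0763 to 0.0792% in the same order. The called windows had a median level over all reads of 63.2% against 95.5% for all CG-only windows, but this level includes the change itself. From near full methylation a rise of this size cannot be called, whereas a fall can. Of the 21, 10 stood alone, beside 13421 of all 42860 CG-only windows.

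Small differences leaned to higher levels at S5. At q of 0.01 or less and any size, 714 CG-only windows passed (1.67%, beside 0.843% of all windows), 479 of them higher at S5 (1.12%, beside 0.353%) and 235 lower (0.548%, beside 0.49%). Among windows with all contexts 458 passed (0.469%), 171 of them higher (0.175%) and 287 lower (0.294%) at S5. With the quasi-binomial test 246 CG-only windows passed (0.574%, beside 0.271%), 141 of them higher at S5, beside 421 of 1326 over all windows. The lean to S5 among the passing CG-only windows was smaller in this test than in the first. The stages did not overlap in 26.8% of the CG-only windows (beside 22.9% of all windows), of which 8037 windows (18.8%, beside 12.9%) were higher and 3441 windows (8.03%, beside 10%) lower at S5. The median difference was 0.578 percentage points in CG-only windows, 0.501 in those 545 windows and 0.180 over all windows tested.

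The 5 windows with the largest calls upward had levels between 30 and 85% in every library and 6 to 10 CG cytosines. On Ca3 from 38722001 to 38722500, 6 CG cytosines stood at 38.7% and 33.1% at S3 and at 72.4%, 81.6% and 66.7% at S5. The reads summed over these cytosines numbered 81 to 133 per library, and the pooled difference was 38.0 percentage points (q = 2.13e-15). On Ca7 from 34258501 to 34259000, 7 CG cytosines stood at 45.9% and 34.1% at S3 and at 78.4%, 67.9% and 67.3% at S5. The S3 libraries were below all S5 libraries by more than 20 percentage points in both windows. The pooled difference of the second was 31.8 percentage points (q = 5.71e-09), which fell to 24.8 without S3 replicate 2 and to 23.3 at CG cytosines with 10 or more reads, below the size set for a call.

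The other upward calls were on Ca3 from 32841501, on Ca7 from 7031001 and on Ca1 from 41036501. The first held 10 CG cytosines within 30 bp with S3 at 41.7% ± 2.25 (SD, n = 2) and S5 at 71.5% ± 9.66 (SD, n = 3), and its pooled difference of 29.5 percentage points became 24.2 without S5 replicate 1. The second held 6 CG cytosines listed in all libraries, all on the reverse strand, at 41.9% ± 5.89 and 71.4% ± 3.48, and its difference of 29.0 became 24.98 without S3 replicate 1. Its coverage was high, at 29.3 to 46.7 reads per CG cytosine, against library medians of 14.6 to 17.5 over the CG-only windows. The third, with 7 CG cytosines at 55.4% and 32.2% at S3 and 60.8%, 75% and 76.1% at S5, differed most between libraries of 1 stage. Its difference of 27.6 became 15.2 when S3 replicate 2 was left out and 24.0 when S5 replicate 2 was.

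The 5 largest calls downward fell from high levels. On Ca3 from 37538001 to 37538500, 19 CG cytosines stood at 94.2% and 92.3% at S3 and at 63.6%, 56.4% and 60.4% at S5. The reads summed over these cytosines numbered 291 to 369 per library, and the pooled difference was -32.9 percentage points (q = 7.9e-51). On Ca3 from 39321001 to 39321500, 8 CG cytosines, all on the forward strand, stood at 84.2% and 84.1% at S3 and at 42.9%, 40.8% and 65.7% at S5 (q = 7.28e-22). Stage means fell from 94.5% to 62.9% on Ca2 from 9822501, from 94.6% to 62.6% on Ca5 from 37156501 and from 93.2% to 64.5% on Ca5 from 42279501, with 6, 7 and 6 CG cytosines. None of these 5 calls was lost when any one library was left out. The window on Ca5 from 37156501 had too few CG cytosines with 10 or more reads to be tested at that minimum.

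The lowest levels among CG-only windows came with very high coverage. On Ca5 from 22695001 to 22695500, 11 CG cytosines stood at 3.72% and 2.28% at S3 and at 1.69%, 2.20% and 2.03% at S5, on 444 to 1079 reads per CG cytosine, and the adjacent window stood at 5.33 to 8.96%. The windows on Ca4 from 37705501, on Ca6 from 6684501 and on Ca7 from 15071501 stood at 3.48%, 6.10% and 18.8% over all reads. Coverage over 3 times the median was found in 60 CG-only windows (0.14%), which averaged 78.6 to 81.1% over the libraries and included all 6 windows below 20% but only 10 of the 160 below 60%. Without them the stage difference was 0.659 percentage points and 20 windows were called.

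CG cytosines not listed in every library numbered 137823 in the CG-only windows. Those listed in 4 of 5 libraries made up 64429 of them, 26816 missing only from S5 replicate 3, and those listed in a single library 17049. The number listed per library was 546987 and 564252 at S3 and 564661, 581000 and 525550 at S5, and the stages overlapped. The rule fixes 472328 of these in every library, so the numbers are a description. CG cytosines listed in both S3 libraries and no S5 library numbered 1703 and had a mean level of 69.5% where listed, and those listed in all 3 S5 libraries and no S3 library numbered 2922 and had 90.05%. Both sets had low coverage where listed, with means of 11.6 and 8.69 reads.

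The few asymmetric cytosines of the CG-only windows fell into highly methylated and weakly methylated positions. The libraries listed 10402 and 11590 at S3 and 8171, 7661 and 8153 at S5, numbers that the rule limits and that are given as a description. Those at 80% or more numbered 3492 and 3549 at S3 and 3618, 3595 and 3427 at S5, with the stages overlapping. Those below 30% numbered 5407 and 6346 at S3 and 3848, 3353 and 3481 at S5. Those from 30% to under 80% numbered 1503 and 1695 at S3 and 705, 713 and 1245 at S5, so the larger number at S3 lay in the weakly and intermediately methylated positions. In windows with all contexts, positions from 30% to under 80% were the most numerous in every library.

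**Figure D5:**
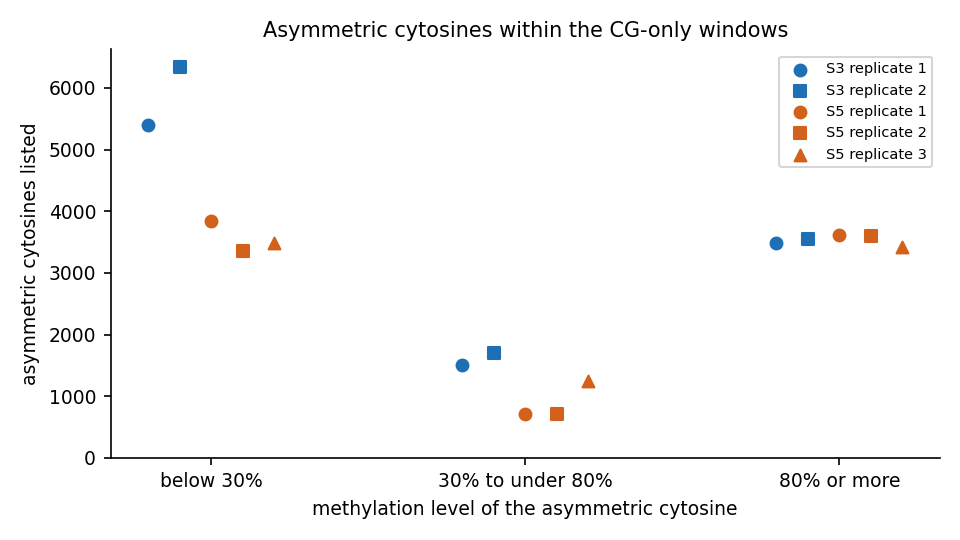
Number of asymmetric cytosines listed within the CG-only windows in each library (points), by methylation level. The numbers at 80% or more lie between 3427 and 3618 in all 5 libraries, while both S3 libraries lie above all S5 libraries in the other classes.

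The mean level of the listed asymmetric cytosines was higher at S5, and this did not hold at the positions shared by all libraries. It was 48.0% and 45.4% at S3 and 54.5%, 57.3% and 55.1% at S5, without overlap and 8.92 percentage points apart. This mean depends on how many weakly methylated positions each library lists. The rule limits the number of asymmetric positions, so the difference is a description. At the 3525 asymmetric positions listed in all 5 libraries, S3 averaged 89.9% ± 0.0670 (SD, n = 2) and S5 averaged 90.1% ± 0.268 (SD, n = 3), and the stages overlapped (exact permutation test, p = 0.5). In windows with all contexts the corresponding differences were 2.84 percentage points over each library's own positions and 4.79 at the positions shared by all libraries (exact permutation test, p = 0.1 for each). Against these windows the stage difference of the CG-only windows was larger by 6.08 percentage points over own positions, which is likewise a description. At shared positions the stage difference of the CG-only windows was lower, by -4.62 (exact permutation test, p = 0.1). The weakly methylated positions had a median coverage of 19 to 22 reads and those at 80% or more of 14 to 18. In 30352 windows with no CG or CHG in any library and at most 3 asymmetric cytosines, the libraries listed 9406 and 12135 asymmetric cytosines at S3 and 12042, 27687 and 9924 at S5, so S5 replicate 2, which stood apart there, did not stand apart within the CG-only windows. The part of call background in these numbers was not tested.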

How the data were processed

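The authors mapped bisulphite reads to the kabuli chickpea genome (v1) with Bismark (v0.14.3, per the submitters' processing notes, which also name methylKit v0.9.2) and called methylcytosines by a binomial test (p at most 0.0001, at least 5 reads). Each deposited file holds only called positions, with read counts (coverage) and methylation level as percent. The percents matched whole methylated reads within 0.0051 percentage points. From these, methylated reads were restored. Positions on more than 1 line of a file (750) were left out. Contexts were set from listed partners, since no genome of this build was used, so sequences, genes and the gene lists planned were not analysed.

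Libraries were the replicates. Levels and numbers were compared by exact permutation over all 10 splits of 2 against 3, and classes within libraries by exact sign flips over 32 patterns. Windows with at least 3 CG in all libraries, unplaced scaffolds included, were fitted by logistic regression on stage and adjusted by Benjamini-Hochberg (the study used 100 bp bins and a sliding linear model). The quasi-binomial alternative moderated dispersions with limma v3.58.1 in R v4.3.3, toward a shared value that far outweighed each window's own dispersion. Other steps used numpy v2.4.6, pandas v2.3.3 and scipy v1.17.1, tested on simulated data. A level of a single CG cytosine rested on a median of 14 to 17 reads. The exact p-values are unadjusted, since 0.1 and 0.0625 are the smallest they can reach and no adjustment could bring one below 0.05.

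The regions named were the 5 longest runs, the 5 windows with most CG, the 5 largest calls in each direction with non-overlapping stages and the 5 lowest levels. The windows, lists and rules were chosen with earlier results of these data known. Alternatives covered window placement, limits of the rule, read minimum, call size, test, left-out libraries and a replicate block.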

Additional observations from a re-analysis of the deposited data

Results flagged for a closer look

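Unplaced scaffolds, which hold none of the CG-only windows above and entered only the fit over all windows tested, held 3129 windows that met the same counts, on 346 sequences. They made up 2.20% of the 142363 scaffold windows with at least 6 CG, beside 21.1% on Ca1 to Ca8. Their CG level was 93.2% and 92.9% at S3 and 93.7%, 93.7% and 93.7% at S5, 0.666 percentage points higher at S5 without overlap (exact permutation test, p = 0.1).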

How the results depend on the processing

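The number of CG-only windows was 42823 with windows moved by 250 bp, 26242 with no asymmetric cytosine allowed, 22174 with at least 10 CG required, and 42130 to 47097 when the rule left out each library in turn. The stage difference of the CG level stayed positive under every alternative, at 0.565 to 0.755 percentage points with a library left out. The stage difference in CG cytosines listed, 1451 over all libraries, changed direction, at -1630 with at least 10 reads and from -10514 to 17211 with a library left out. The mean CG level against windows with all contexts ran from -0.535 to -0.311 with a library left out, was -0.153 with equal weight for each cytosine and reversed to 0.680 as a median, an alternative chosen after seeing the data. The strand difference ran from -0.00312 to 0.00909 with a library left out. The called windows numbered 405 at 10 percentage points (252 higher, 153 lower, beside 0.515% of all windows), 27 at CG cytosines with 10 or more reads (beside 0.0851%), and 17 to 39 with a library left out (beside 0.0763 to 0.124%).

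Replicate numbers are shared between the stages by number only. Over the windows, the difference between replicates 1 and 2 at S3 and at S5 had a correlation of 0.00438. With the replicate number as a block, on replicates 1 and 2, 38 windows were called (beside 0.122% of all windows), against 39 in the same libraries without the block (beside 0.124%). The block gave 0.676 percentage points for the CG level and 17211 for the CG cytosines listed, and took the window on Ca1 from 41036501 below the size for a call, at 24.1. With 2 S3 libraries no exact permutation of the stage labels can go below p = 0.1, and an exact p of 0.1 does not separate the stages from chance spread between libraries.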
